A study of Mus musculus with 6 samples.

Results

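Cytosolic ribosomal protein genes encode the protein part of the ribosomes that translate nuclear messages. They were chosen by symbol, as every gene named Rpl or Rps with a number (an added a, x, l or y allowed) or Rplp0, Rplp1 or Rplp2. The rule found 82 of the 32285 genes in the matrices, 51 of the large subunit and 31 of the small subunit. Of these, 79 passed the filter on low counts (48 large, 31 small), Rpl10l and Rpl3l had no UMI in any kept T cell, and Rpl39l had 16.

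A ribosome joins a small subunit, which reads the message, to a large subunit, which forms the peptide bonds, and each protein is present once per particle apart from the acidic stalk proteins. Many ribosomal protein messages begin with a run of pyrimidines at the very 5′ end, the terminal oligopyrimidine tract, through which mTORC1 and the RNA-binding protein Larp1 control their translation and stability. T cells raise ribosome production when they leave quiescence, while resting lymphocytes hold stores of poorly translated ribosomal protein messages.

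The data are 10x 3′ single-cell UMI counts (each unique molecular identifier marks 1 captured transcript) from donor CD4+ T cells with the OT-II transgene, a T cell receptor that recognises an ovalbumin peptide. Donors were OTII+/+RAG-/- mice, either wild type (WT, libraries WT 1 and WT 2) or heterozygous for the M318R allele knocked into Tgfbr1, which encodes the type I TGF-beta receptor (TgfbrIWT/mut, here mutant 1 and mutant 2). Cells of both groups went intravenously into CD45.1 WT hosts, whose own cells remained in place, and the hosts drank 1.5% ovalbumin for 7 days before CD45.2+CD45.1-CD4+CD8-TCRβ+ cells were recovered by sorting on day 8 from the follicles of the gut wall, the Peyer's patches. The donors' ages are not given for this experiment, and the labels place these libraries neither in the rapamycin nor in the peanut experiment described with it. The WT matrices also carry 3 antibody tags and the mutant matrices none, so handling and genotype cannot be told apart, and nothing says that the libraries are separate animals, so p-values measure only the spread between libraries, which may be technical. Values per library are given below in the order WT 1, WT 2, mutant 1, mutant 2.

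Kept T cells numbered 2970, between 181 (mutant 2) and 1276 (WT 1) per library, with 1704466 to 12048907 UMIs per library and a median of 8638 to 9039 UMIs per cell. The 6 T cell markers (the Cd3 chains, Cd4, Trac and Trbc2) summed to 13096 to 13461 CPM (counts per 1000000 UMIs), while the epithelial list summed to 9.63 to 13.5 CPM (Epcam and Lgals4 above all, Cdh1 at 0), the stromal list to 58.7 to 85.1 CPM (mostly Pecam1, Col3a1 at 0) and the list for natural killer and innate lymphoid cells to 59.8 to 82.5 CPM (mostly Gata3, which T cells also express, Ncr1 at 0). The myeloid list summed to 75.1 to 86.1 CPM, mostly Cst3. Tgfbr1 itself was at 31.5, 26.0, 27.8 and 17.0 CPM (mutant minus WT log2 fold change -0.25 ± 0.19 SE, edgeR adjusted p = 0.636), and 3′ counts do not check a point mutation. Of all barcodes, 23 occurred in more than 1 library, 4 of them among kept T cells. Single genes, ribosomal protein genes among them, deviated most in mutant 2 and WT 1, as given with the offsets of each library, and WT 1 also stood apart in its plasma-cell transcripts, given with cluster 1.

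Ribosomal protein genes took 22.7% to 26.2% of all UMIs in the T cells of a library, and the share differed between cell states. Cells resembling naive or memory T cells, named from Ccr7, Klf2, Lef1, S1pr1 and Satb1, had the highest share, and T follicular helper (Tfh)-like cells, which help B cells in the follicle and were named from Cxcr5, Bcl6, Pdcd1, Il21, Ascl2 and others, had one of the lowest. States were clusters built without any ribosomal protein gene, so the share was not used to define them. In sums over cells a lower level per cell and fewer cells with a high level cannot be told apart. A share also falls when other RNA rises, so UMIs per cell are given beside the shares.

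In naive or memory-like cells the ribosomal protein share was 29.8%, 29.0%, 29.9% and 29.1%. Tfh-like cells had 21.3%, 19.4%, 21.1% and 20.3%. The ranges of the 2 states lay far apart, whatever the genotype of the library. The difference was 8.54, 9.66, 8.77 and 8.76 percentage points, on average 8.93, with p = 0.125 in a two-sided exact sign-flip permutation test over 4 libraries, the smallest p that 4 pairs can give. Mutant 2 held only 13 naive or memory-like cells. With each cell thinned to 3000 UMIs the mean difference was 8.86 points, with 2 naive or memory-like cells and 8 Tfh-like cells too shallow to enter. A median naive or memory-like cell held 2581 ribosomal protein UMIs and 6135 others, and a median Tfh-like cell 1921 and 7681, so the 2 states differed in both terms of the ratio. The 8 B-cell markers summed to 387 to 659 CPM in Tfh-like cells, nearly all of it Ighm, and to 91.7 to 150.2 CPM in naive or memory-like cells, with Ms4a1 at 0 in both, and their part in the difference was not tested.

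The other states lay between or below these. Recently stimulated-like cells (Nr4a1, Egr1, Egr2, Egr3) had a share of 25.5% ± 0.77 (SD, n = 4 libraries), and proliferating-like cells (Top2a, Stmn1, Pcna, Mcm5) 25.3% ± 1.73 (SD, n = 4). Proliferating-like cells had the most ribosomal protein UMIs per cell of any T cell state, a median of 3269 beside 9595.5 others, so their share was intermediate while their count was high. Cluster 1, which took no name and was led by Igha, Jchain, Igkc, Id2 and Gpr183, had 25.4% ± 0.37 (SD, n = 4). Interferon signature-like cells, present in 3 libraries, had 25.5% ± 1.17 (SD, n = 3), and cluster 5, led by Eomes and Nkg7, 26.8% ± 2.00 (SD, n = 4). The ranges of these 5 over libraries overlapped. Cluster 6 had 22.5% ± 1.53 (SD, n = 4), and cluster 10, led by Gzmb, Cxcr6, Ccr9 and Il10, 20.3% ± 2.12 (SD, n = 4, with only 2 cells in mutant 2).

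Cluster 8 was far below all others, at 8.84% ± 0.48 (SD, n = 4). Its cells were shallow, with a median of 3333 UMIs, 230 of them from ribosomal protein genes, and 7.48% mitochondrial UMIs where the other T cell states had at most 3.75%. Its leading genes, Lars2, Ahnak, Nlrc5 and Macf1, gave no T cell state a name. RNA quality moved with this low share, and its part in it was not tested.

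**Figure D1:**
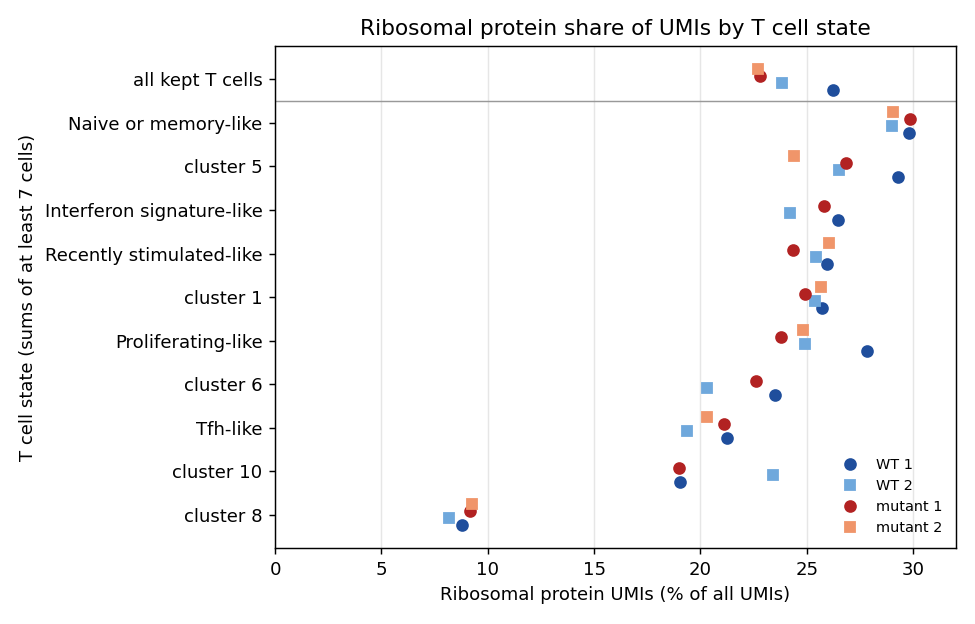
Share of UMIs from the 82 ribosomal protein genes (horizontal axis, percent) in each T cell state and in all kept T cells (vertical axis), one point per library with at least 7 cells (WT blue, mutant red and orange). Naive or memory-like cells lie between 29.0% and 29.9%, Tfh-like cells between 19.4% and 21.3%, and cluster 8 between 8.18% and 9.24%. In all kept T cells both mutant points lie below both WT points, and in cluster 8 above them.

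Gene by gene, nearly all tested genes were higher in naive or memory-like cells. In all 4 libraries 75 of the 79 tested genes had a higher CPM there than in Tfh-like cells, where 12.4% of the 8303 genes tested did. Another 2 were lower in all 4 libraries (30.8% of all genes), both of them paralogs, and Rpl22l1 and Rpl7a had no common direction. The median difference was 0.52 on the log2 CPM scale, against -0.21 over all genes. Counted per UMI outside the ribosomal protein genes, which takes their own weight out of the denominator, 76 were higher in all 4 libraries (19.2% of all genes) with a median of 0.69 against -0.04. The p of each gene over 4 pairs could not go below 0.125, so these are counts of direction.

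The median difference was 0.57 over the 31 small-subunit genes and 0.48 over the 48 large-subunit genes. Rps19, a small-subunit protein needed to mature 18S RNA, had the largest difference. It gave 3164, 3177, 3198 and 3676 CPM in naive or memory-like cells, and 1932, 1669, 1848 and 1777 CPM in Tfh-like cells. All 4 naive or memory-like values lay above all 4 Tfh-like values, a mean log2 difference of 0.87 ± 0.15 (SD, n = 4). Rps14 differed by 0.75 ± 0.09 and Rps24 by 0.75 ± 0.07. Rpl12, a protein at the base of the stalk, was the large-subunit gene with the greatest difference, 0.76 ± 0.10. It gave 3365, 3590, 3739 and 4035 CPM in naive or memory-like cells and 2093, 1964, 2148 and 2537 CPM in Tfh-like cells.

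At the other end stood genes that hardly differed between the 2 states. Rpl7a, a large-subunit protein, gave 1276, 1133, 1043 and 1064 CPM in naive or memory-like cells and 1117, 1025, 1045 and 1079 CPM in Tfh-like cells, a difference of 0.08 ± 0.11 (SD, n = 4) with overlapping values. Rpl31 differed by 0.13 ± 0.09 and Rpl21 by 0.13 ± 0.02, so Rpl21 had a small difference that was nearly the same in each library. Rpl15 differed by 0.21 ± 0.09. These genes shared the direction of the rest in all 4 libraries except Rpl7a, whose mutant libraries were at -0.002 and -0.020.

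Of the 6 paralogs within the naming rule, Rpl7l1 and Rps27l went the opposite way to their parent genes in all 4 libraries. Rpl7l1, which resembles Rpl7 and acts in assembly of the large subunit, gave 53.4, 56.6, 30.1 and 65.3 CPM in naive or memory-like cells and 81.8, 81.5, 74.7 and 77.7 CPM in Tfh-like cells, lower in each library by a mean log2 difference of -0.67 ± 0.44 (SD, n = 4). Its parent Rpl7 was higher by 0.62 ± 0.07. Rps27l, a p53-responsive relative of Rps27, gave 121.4, 113.2, 132.2 and 71.8 CPM against 171.7, 177.9, 164.6 and 136.0 CPM, a difference of -0.59 ± 0.25, while Rps27 was higher by 0.46 ± 0.10. The naive or memory-like sums held only 332730 UMIs in mutant 1 and 153153 in mutant 2. The values of Rpl7l1 and Rps27l there thus rest on few counts, and so does their direction in these libraries. Rpl22l1, whose parent Rpl22 binds RNA and is known for a role in T cell development, differed by -0.04 ± 0.18, with mixed signs, and Rpl22 by 0.36 ± 0.05. Rpl39l reached at most 1.17 CPM in either state, its parent Rpl39 differed by 0.49 ± 0.06, and Rpl3l and Rpl10l had no UMI beside differences of 0.41 ± 0.07 for Rpl3 and 0.53 ± 0.05 for Rpl10.

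**Figure D2:**
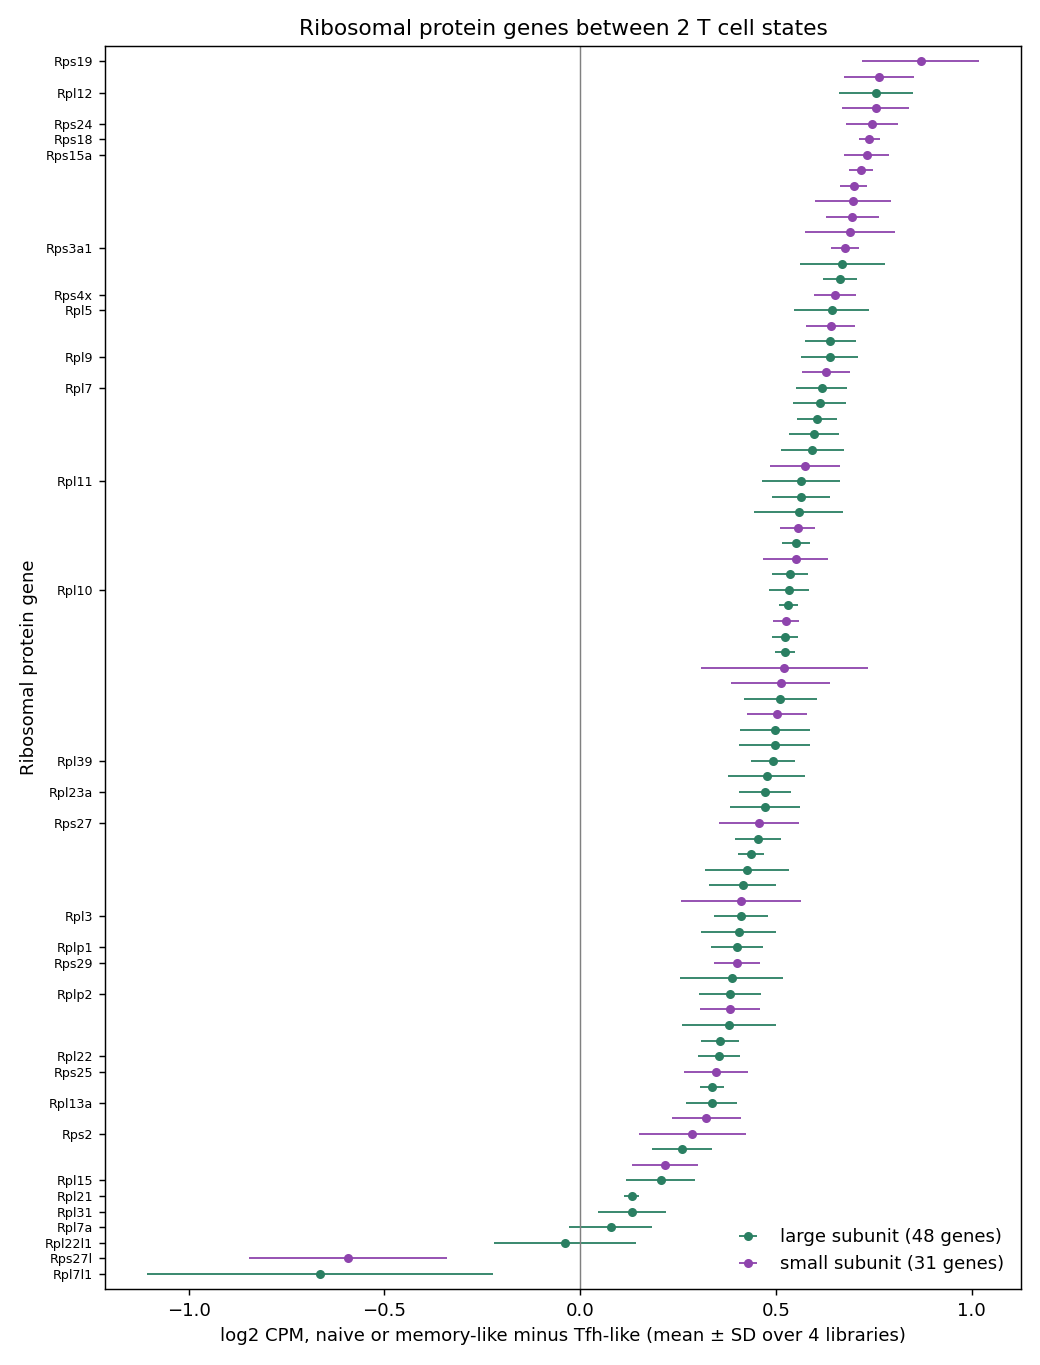
Difference in log2 CPM between naive or memory-like and Tfh-like cells (horizontal axis) for the 79 tested ribosomal protein genes (vertical axis, with a few named), mean ± SD over 4 libraries, large subunit in green and small subunit in purple. All but 3 means are above 0, from Rps19 at 0.87 down to the paralogs Rps27l at -0.59 and Rpl7l1 at -0.67.

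Start-site sequences are shown because a pyrimidine tract is the feature these genes are known to share and because they differed in the state contrast. In RefSeq (GRCm38.p6), 62 of the 82 genes had a start site. A tract was taken as at least 5 consecutive C or T on the sense strand, counted from a C within 5 bases of the start. The base before that C was not examined, so a marked stretch can lie within a longer run of C and T. It was found in 29 of the 62 (46.8%), against 21.2% of 27025 genes, and at exactly the start in 13 (21.0% against 3.01%). Below, the 20 bases around the start, 10 on either side, are printed with the tract in capitals, first for 4 genes with large differences between states, then for 4 with small ones, then for Rpl7l1 and Rps19, where no tract was found.
Rps24, chr14:24490668-24490687, plus strand: gctggggtCCTTCCTTgcgc
Rpl12, chr2:32961702-32961721, plus strand: agcaggatccgtCTTTTCgg
Rps18, chr17:33955656-33955675, minus strand: cacttccgCTCTCTCTTCCa
Rps15a, chr7:118116138-118116157, minus strand: tttctgccatCTTCCCTCgc
Rpl7a, chr2:26910797-26910816, plus strand: ctcttCTTTCTTTCTCCagc
Rpl31, chr1:39367841-39367860, plus strand: tcctcgCCTCCCCgtgaccc
Rpl15, chr14:18270977-18270996, minus strand: agaaagCCTTCTTCCTTTCC
Rpl22l1, chr3:28805498-28805517, plus strand: gcgcaagcccgttCTCTTCC
Rpl7l1, chr17:46782647-46782666, minus strand: gctgcgcaagcgcagtagct
Rps19, chr7:24884582-24884601, plus strand: aatctcgcgagactcgacgc
The tract stood in genes at both ends of the contrast. Among tested genes with a start in RefSeq, the median difference between the states was 0.49 over the 29 where a tract was found. It was 0.53 over the 30 where none was found. Rps19, with the largest difference of all, had 3 annotated starts and no tract found at any of them. The search depends on an annotated start that is right within 5 bases. Rpl35a, Rps21 and Rps24 had a tract at some annotated starts and not at others. A gene where none was found may therefore still carry a tract, and the split cannot show whether the tract matters for the difference.

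Translation genes outside the naming rule are given from lists chosen with earlier results of the same state contrast known, beside the 12.4% of all genes that were higher and the 30.8% that were lower in all 4 libraries (19.2% and 20.9% per UMI outside the ribosomal protein genes). Of 6 ribosomal proteins with other symbols, 5 were higher in naive or memory-like cells in all 4 libraries, led by Rack1, a small-subunit scaffold (0.70 ± 0.11), and Fau (0.50 ± 0.10), while Rpsa was at -0.18 ± 0.15. Of 21 other genes known for a pyrimidine tract, 13 were higher in all 4 libraries and 3 lower, with a median of 0.31, and per UMI outside the ribosomal protein genes 16 were higher and 0 lower, with a median of 0.49. Among them were the elongation factors Eef1b2 (0.68 ± 0.10) and Eef1a1 (0.38 ± 0.06) and the host RNA Gas5 (0.83 ± 0.19). Of 19 genes of mTORC1 and cap-dependent translation control, 3 were higher and 7 lower (4 and 5 per other UMI), shares near those of all genes, with a median of -0.31 (-0.14 per other UMI). The 3 were Pdcd4, an inhibitor of the helicase Eif4a1, at 0.92 ± 0.09, and the mTORC1 inhibitors Sesn1 (1.12 ± 0.12) and Sesn3 (0.61 ± 0.27). The 7 were Eif4a1 itself (-0.89 ± 0.16), Mtor (-0.53 ± 0.28), Eif4e (-0.40 ± 0.28) and the inhibitors Ddit4, Eif4ebp2, Tsc1 and Tsc2. Ddit4 was at -0.55 ± 0.45, Eif4ebp2 at -0.54 ± 0.12, Tsc1 at -0.29 ± 0.10 and Tsc2 at -0.40 ± 0.15. Tsc2, Mtor and Tsc1 had only 100, 119 and 253 UMIs over both states and all libraries, so their direction in the smaller libraries rested on few counts. Inhibitors with more UMIs, such as Sesn3 (2060, higher) and Ddit4 (2005, lower), still stood on both sides. Per other UMI, Mtor and Eif4e were no longer lower in all 4 libraries. Of 26 genes for chaperones and late assembly of ribosomes, 3 were higher and 6 lower, and per other UMI 7 were higher and 2 lower, so the balance turned with the scale. Mitochondrial ribosomal proteins, which serve a separate ribosome, had 44 of 77 lower and 0 higher in all 4 libraries, a median of -0.45. Per other UMI 26 were lower and 2 higher, with a median of -0.29.

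Across the 6 states with at least 10 cells in every library, each of the 79 genes was at its lowest in cluster 8. The highest mean log2 CPM was in naive or memory-like cells for 60 genes and in proliferating-like cells for 16, among them Rps2, Rpl3, Rpl15 and the paralogs Rpl7l1, Rpl22l1 and Rps27l. Rpl21 was highest in recently stimulated-like cells (11.66, against 11.64 in naive or memory-like cells). Rplp1, an acidic stalk protein, was highest in cluster 1 (12.914, against 12.912 in naive or memory-like cells). Rps27 was also highest there (12.91 against 12.87), so each of these leads was small. Relative to Tfh-like cells, proliferating-like cells were higher for 78 of 79 genes with a median of 0.34, and Rps2 differed most, by 0.83. Recently stimulated-like cells were higher for 74, with a median of 0.30, and cluster 1 for 72, with a median of 0.29. These counts of genes have no share over all genes beside them. They follow the total shares, which were lowest in cluster 8 and lower in Tfh-like cells than in these states, so they are not separate results for each gene. The range over the 6 states was smallest for Rpl4 (1.04), had a median of 1.76 and was largest for Rps27l (3.50), whose mean log2 CPM was 8.00 in proliferating-like cells, 7.35 in Tfh-like cells and 4.50 in cluster 8.

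Large-subunit genes gave more UMIs than small-subunit genes in every state and library, and the ratio was higher in Tfh-like cells and clusters 8 and 10, whose total share was low, than in naive or memory-like cells. The ratio in Tfh-like cells was 1.319, 1.331, 1.328 and 1.352. In naive or memory-like cells it was 1.244, 1.235, 1.242 and 1.248, below every Tfh-like value. The difference was -0.090 on average (p = 0.125, two-sided exact sign-flip permutation test, n = 4, the smallest possible), and -0.080 after thinning to 3000 UMIs per cell. Cluster 1 (1.248 ± 0.015, SD, n = 4) did not differ from naive or memory-like cells beyond its spread. Proliferating-like cells had 1.294 ± 0.013, cluster 10 1.326 ± 0.024 and cluster 8 1.344 ± 0.031 (SD, n = 4 each). These ratios sum 3′ UMIs over 51 and 31 genes and do not measure particles.

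**Figure D3:**
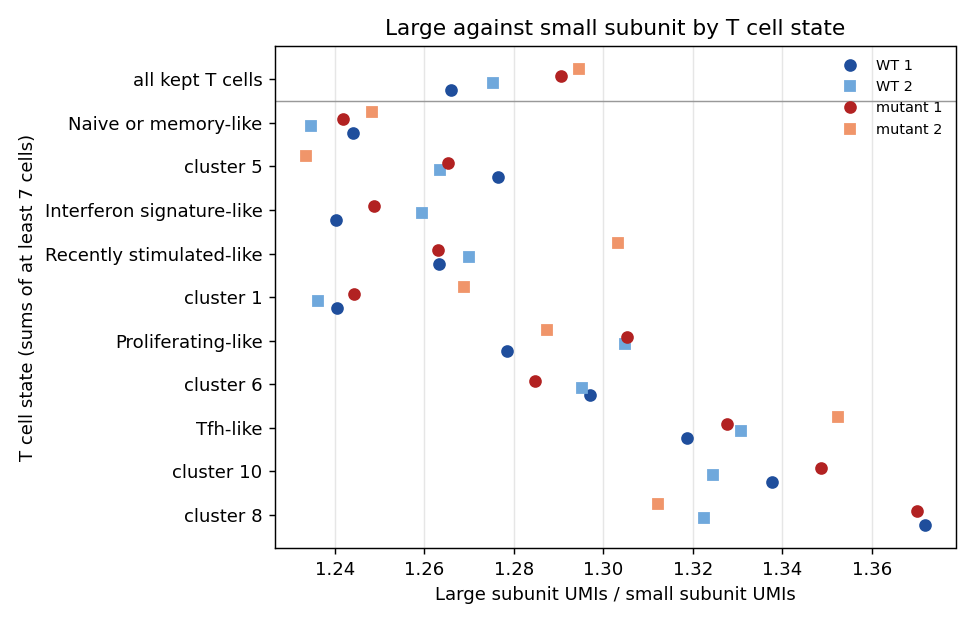
Summed large-subunit UMIs over summed small-subunit UMIs (horizontal axis, not starting at 0) by T cell state, one point per library with at least 7 cells, in the same order of states as the plot of shares. Tfh-like cells lie between 1.319 and 1.352 and naive or memory-like cells between 1.235 and 1.248, with no overlap.

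By genotype, the total share in all kept T cells was lower in the mutant libraries, at 22.8% and 22.7%, against 26.2% and 23.9% for WT. Both mutant values lay below both WT values, but the WT libraries differed from each other by 2.37 points and WT 2 from mutant 1 by 1.06 points. The difference was -2.28 percentage points (p = 0.333, two-sided exact permutation test, n = 2 against 2, the smallest p this design allows), -1.09 without WT 1 and -3.46 without WT 2. The mix of states differed between libraries. Tfh-like cells were 12.6%, 24.2%, 39.5% and 28.2% of kept cells, and naive or memory-like cells 24.3%, 15.8%, 4.31% and 7.18%. Cluster 8 held 1.10%, 3.17%, 6.69% and 14.4%. The other states of low share went the other way, cluster 10 with 4.62%, 2.38%, 1.93% and 1.10% and cluster 6 with 4.78%, 6.97%, 3.74% and 2.21%. The B-cell markers summed to 168, 227, 290 and 339 CPM, nearly all of it Ighm (155, 213, 278 and 330 CPM). Cd74 was next, at 9.71, 9.78, 9.29 and 6.45 CPM, and Cd79a was at 1.16, 0.52, 0.38 and 0 CPM. The part of these markers in the difference was not tested. With Tfh-like cells and cluster 1 weighted alike, the 2 with at least 20 cells in every library, the difference was 0.06 points, and it was -0.28 with the 6 states of at least 10 cells. Within states the mutant mean minus the WT mean was 0.40 points in Tfh-like cells, -0.27 in cluster 1, 0.06 in naive or memory-like cells and -0.49 in recently stimulated-like cells. Proliferating-like cells (-2.07) and cluster 5 (-2.28) had larger values, with WT 1 the highest library in both. The proliferating-like shares were 27.8%, 24.9%, 23.8% and 24.8%, so WT 2 lay close to mutant 2. Cluster 5 had 29.3%, 26.5%, 26.8% and 24.4%, with overlap, and mutant 2 held 11 and 7 cells of these states.

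The large to small subunit ratio over all kept T cells was 1.266, 1.275, 1.291 and 1.295, a difference of 0.022 (p = 0.333, two-sided exact permutation test, n = 2 against 2, the smallest possible). It was 0.017 with Tfh-like cells and cluster 1 weighted alike. Both mutant libraries stood above both WT libraries, by less than the distance between the 2 states above.

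None of the 79 genes passed edgeR's quasi-likelihood test between genotypes in all kept T cells at an adjusted p of 0.05, while 1.38% of 10727 genes did (94 up, 54 down). At an unadjusted p under 0.05 there were 5 in edgeR (Rps3a1, Rps4x, Rpl11, Rpl9 and Rpl23a), against 1352 of all 10727 genes. There were 15 in DESeq2, which also called 0, against 590 of all 10727 genes. The fold changes leaned one way: 70 of 79 were negative, with a median log2 fold change of -0.18 against -0.0011 over all genes, and 53 were below both WT libraries in both mutant libraries (22.8% of all genes). Without WT 1 the median was -0.10. With Tfh-like cells and cluster 1 weighted alike it was -0.0041, against -0.0051 over all genes, and 42 were negative.

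The lowest fold change was that of Rps3a1, a small-subunit protein at the platform of the particle. It gave 4682, 4153, 3581 and 3215 CPM, both mutant values below both WT values (log2 fold change -0.38 ± 0.16 SE, edgeR adjusted p = 0.306). Rps4x, an X-linked small-subunit gene, gave 3955, 3459, 3201 and 2631 CPM (-0.35 ± 0.16 SE). Rpl11, which binds Mdm2 when ribosome assembly fails, gave 3015, 2555, 2373 and 2014 CPM (-0.34 ± 0.16 SE). Rpl9 (-0.34 ± 0.16 SE) and Rps26 (-0.31 ± 0.15 SE) followed. These 5 had adjusted p-values of 0.306 to 0.433 in edgeR, so none passed.

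Neither the genes with the most counts nor those with the fewest passed the test by genotype. These 3′ counts were not divided by length, so levels are given gene by gene and not ranked as transcripts. Rps29 gave 8288, 7266, 7556 and 7503 CPM, with overlap of the groups (-0.05 ± 0.16 SE). Rplp1 (-0.08 ± 0.16 SE), Rps27 (-0.06 ± 0.16 SE) and Rps24 (-0.26 ± 0.16 SE) had fold changes on either side of the median of -0.18. Among the genes with the lowest counts, Rpl7l1 gave 68.7, 69.2, 64.9 and 62.4 CPM (-0.11 ± 0.14 SE), and Rps27l 143.9, 145.0, 156.1 and 119.7 CPM (-0.04 ± 0.14 SE). Rpl22l1 (-0.21 ± 0.16 SE) and Rpl29 (-0.15 ± 0.15 SE) were the next, and the parents Rpl7 (-0.22), Rpl22 (-0.13), Rpl39 (-0.25), Rpl3 (-0.27) and Rpl10 (-0.25) had fold changes of the same sign.

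Outside the naming rule, the 6 other ribosomal proteins had 0 calls and a median log2 fold change of -0.19. Of the 21 other genes with a pyrimidine tract 1 fell, Vim, a filament protein, at 49.0, 42.4, 19.5 and 10.2 CPM (log2 fold change -1.44 ± 0.20 SE, edgeR adjusted p = 0.00124). Vim was also 2.25 ± 0.74 (SD, n = 4) higher in naive or memory-like than in Tfh-like cells on the log2 scale. The 21 mTORC1 and translation-control genes had 0 calls with a median of -0.01, the 26 assembly genes 0 with -0.08, and the 78 mitochondrial ribosomal proteins 0 with -0.11.

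Rpl23a had the highest fold change by genotype. It encodes a large-subunit protein beside the exit of the peptide tunnel and lies on chromosome 11 from 78180932 to 78183584 on the minus strand (GRCm38, GENCODE M21). In all kept T cells it gave 1453, 1469, 1521 and 2330 CPM. Mutant 1 was close to the WT libraries and mutant 2 alone was high. The log2 fold change was 0.40 ± 0.18 (SE) with an edgeR adjusted p of 0.362, and 0.06 without mutant 2.

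Within states both mutant libraries were above both WT libraries for Rpl23a, mutant 2 by far the more. In Tfh-like cells it gave 1187, 1193, 1449 and 2194 CPM (log2 fold change 0.60 ± 0.16 SE, edgeR adjusted p = 0.0686), and 0 of 79 genes passed where 0.427% of 8675 genes did. DESeq2 was not run within states, and 4 of the 79 (Rpl23a, Rpl5, Rps15 and Rplp2) had an unadjusted p under 0.05 in edgeR. Over all 8675 genes 672 had. In cluster 1 Rpl23a gave 1365, 1577, 1627 and 2671 CPM. It was the only one of 79 genes that passed (0.54 ± 0.12 SE, edgeR adjusted p = 0.0131), where 0.341% of 7621 genes did. The call was lost without WT 1 (0.43, adjusted p = 0.776) and without mutant 2 (0.15, adjusted p = 0.879), with adjusted p-values from 0.00228 to 0.879 over the libraries left out. In the same cluster the 5 plasma-cell markers, Igha and Jchain above all, summed to 1200, 55.6, 64.4 and 32.6 CPM, with Jchain at 0 outside WT 1. Their part in the result was not tested. The test of the difference between the 2 genotype effects called 0 of 79 genes (0.0915% of 8739 genes). In it 1 gene of the 79, Rps26, had an unadjusted p under 0.05, against 458 of all 8739 genes. Rpl23a differed by 0.08 ± 0.12 (SE).

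Rpl23a also took part in the state contrast. It was higher in naive or memory-like than in Tfh-like cells by 0.43, 0.55, 0.51 and 0.41, from 1594 to 2932 CPM against 1186 to 2212 CPM. In mutant 2, where its level was high, the difference was of the same size as in WT 1.

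Other ribosomal protein genes were high in mutant 2 as well. Taking each library's log2 CPM over the mean of the other 3, the offset of mutant 2 was 0.72 for Rpl23a, 0.43 for Rps15, 0.39 for Rpl31 and 0.36 for Rpl5, a 5S RNA partner. Rplp2 (0.31), Rps25 (0.30) and Rpl13a (0.23) came next. Most genes were slightly low in mutant 2, with a median offset of -0.14 and a minimum of -0.39 at Rpl22l1. The standard deviation of the offsets over 77 genes was 0.205 in mutant 2, against 0.126 in WT 1, 0.066 in WT 2 and 0.075 in mutant 1. Over 88 other genes with as many UMIs it was 0.260 in mutant 2 and 0.272 in WT 1. In WT 2 it was 0.152 and in mutant 1 it was 0.175. Mutant 2 thus spread widely in other genes too, where WT 1 was slightly wider, while among ribosomal protein genes mutant 2 was the widest. Mutant 2 had the fewest cells, 181, and each of the 77 genes had at least 20000 UMIs over the 4 libraries.

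**Figure D4:**
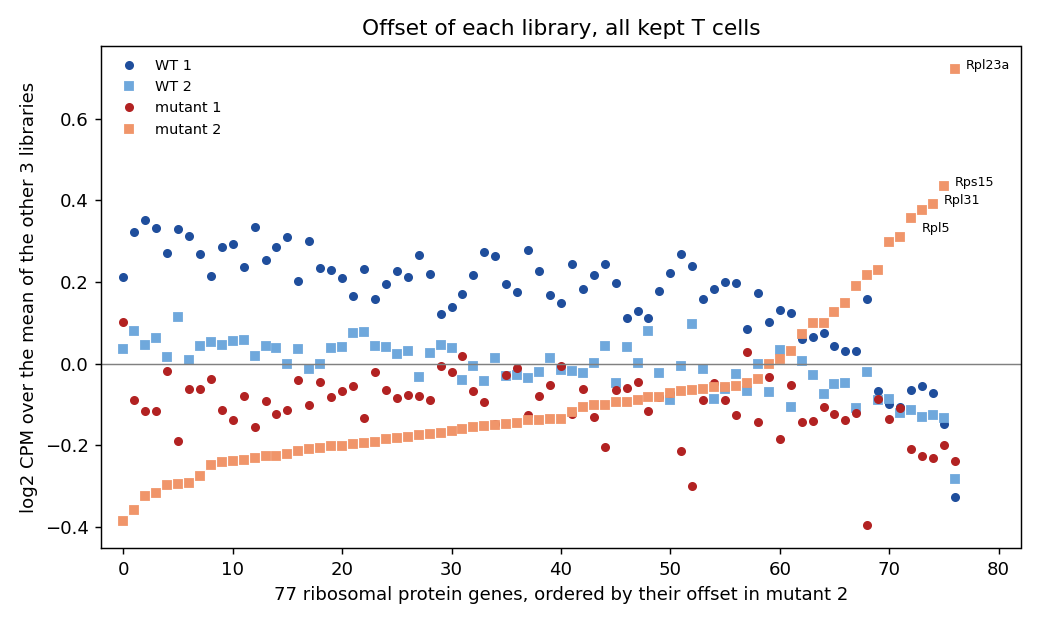
Log2 CPM of each library over the mean of the other 3 (vertical axis) for 77 ribosomal protein genes ordered by their value in mutant 2 (horizontal axis), one point per gene and library, all kept T cells. In mutant 2 the genes spread from -0.39 to 0.72, with Rpl23a at the top, while WT 2 and mutant 1 stay closer together.

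The offsets were also present within states. In Tfh-like cells mutant 2 had 0.81 for Rpl23a, 0.49 for Rpl31 and 0.43 for Rpl5, and in cluster 1 it had 0.82, 0.46 and 0.46. Over the 77 genes the offsets of mutant 2 in these 2 states correlated with r = 0.91, against 0.90 in WT 1, 0.56 in WT 2 and 0.72 in mutant 1, as a description over genes that share a library and are not replicates. Over 29 sums of at least 20 cells by state and library, genes most like Rpl23a in log2 CPM included Rps25 (r = 0.90), Rplp2 (0.89), Rpl5 (0.87) and Rpl13a (0.86), where the sums share libraries and states.

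Apart from Rpl23a, the highest fold changes by genotype, Rps15 (0.17 ± 0.16 SE), Rplp2 (0.13 ± 0.16 SE), Rpl31 (0.11 ± 0.15 SE) and Rps25 (0.10 ± 0.15 SE), also rested on mutant 2. Rps15 gave 1883, 1875, 1830 and 2401 CPM. Without mutant 2 the value was 0.01 for Rplp2, and Rps15 (-0.04), Rpl31 (-0.10) and Rps25 (-0.03) were reversed. Of the 50-base words in the last 300 bases of Rpl23a transcripts, 80.9% also occurred in transcripts of 23 other annotated genes. None of these 23 was among the genes of the matrices, so no copy had counts of its own, and how reads shared with them were treated is not given in the sources used here. The median over 77 genes was 62.2%, and Rpl31, Rpl5, Rps25 and Rpl13a, which shared the offset, had 0%. Across the 77 genes this share and the offset of mutant 2 had r = -0.12 and rho = -0.11, given as a description.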

How the data were processed

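The authors deposited filtered matrices of UMI counts, with genes in rows and cell barcodes in columns. Cell Ranger 6.0.0, Seurat 4 and the build mm10 are named in the submitters' processing notes. Everything below was computed from these counts. The genes and lists were chosen with earlier results of these data known.

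Barcodes with at least 500 genes and at most 10% mitochondrial UMIs were kept (3108 of 4803), and 31 Scrublet doublets were left out. Scanpy 1.11.5 scaled cells to 10000 counts and leidenalg 0.10.2 clustered them on 1751 variable genes (2000 less those for ribosomal proteins, receptor chains, antibodies, mitochondrial and predicted genes), 30 components, 15 neighbours, resolution 0.8 and seed 0. A cluster took a name when at least 3 markers were among its 50 leading genes at 2-fold or more, with a lead of 2 markers over the next type. That lead, the excluded genes and the removal of 1 cluster of 107 cells with B-cell and epithelial markers were decided with the matrices in view. The 2 WT hashtag samples without matrices were not analysed here.

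For each library the counts were summed. After filterByExpr and TMM scaling, mutant and WT sums were compared by the quasi-likelihood test of edgeR 4.0.16 (limma 3.58.1, R 4.3.3), mutant minus WT. Benjamini-Hochberg adjustment ran over all genes at 0.05. A prior count of 2 was used for the log CPM with which same-numbered libraries were compared, not in the test. CPM given with the fold changes by genotype are TMM-scaled. CPM by state, of the marker lists and in the offsets of each library are plain. Classes with at least 20 cells in every library were tested. DESeq2 1.42.0 was an alternative. Replicates differed by more than sampling noise (chi-square per degree of freedom 6.97 in WT, 4.75 in mutant).

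Named genes were those past the threshold, Rpl23a, the 5 highest and 5 lowest by level and by fold change, the 5 that differed most between states in each direction, and paralogs with their parents, some of which are not reported here. Other genes were named after their values were seen. On simulated counts for all kept T cells (10727 genes), edgeR recovered 83% of 2-fold and 96% of 4-fold changes with 3 false calls. For Tfh-like cells (8675 genes) it recovered 62% and 95% with 9 false calls, and for cluster 1 (7621 genes) 65% and 93% with 7. Exact 95% binomial intervals of the shares cover counting error only. The widest in the state contrast, for naive or memory-like cells of mutant 2, ran from 28.8% to 29.3%.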

Additional observations from a re-analysis of the deposited data

How the results depend on the processing

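With 2 libraries a group, the exact tests by genotype cannot pass 0.05, and 62% to 83% of 2-fold changes were recovered in simulation. The lower share in mutant libraries was reversed when Tfh-like cells and cluster 1 were weighted alike (0.062 points, p = 1, exact permutation test), and leaving out 1 library gave -3.46 to -1.09 points. The other alternatives kept its direction, and the subunit ratio kept its direction in all 14, from 0.009 to 0.032. The state contrast kept its direction in all 9 alternatives, from 7.59 to 9.27 points, and its ratio from -0.116 to -0.080. Same-numbered libraries were not shown to be paired (r = 0.03 with only 2 pairs). With the replicate number as a block, edgeR called 1 gene that rose (Rpl23a) in all kept T cells. It called 4 that fell there (Rps3a1, Rps4x, Rpl11 and Rpl9), where 234 rose and 144 fell over 10727 genes. In Tfh-like cells it called 1 that rose (Rpl23a), where 32 rose and 17 fell over 8675 genes. The block left the share difference at -2.28 points. Leaving out 1 library gave log2 fold changes of Rpl23a from 0.287 to 0.870 in Tfh-like cells and from 0.151 to 0.854 in cluster 1. At Leiden resolution 1.2, where the clusters were redrawn, 3 genes (Rps26, Rplp0 and Rpl32) had a higher genotype effect in Tfh-like cells than in the next class. Over all 8586 genes 10 were called higher and 11 lower. There 52 of 79 had an unadjusted edgeR p under 0.05 (801 of 8586 over all genes), against 1 in the main fit. The median difference of the 79 was 0.28, against 0.07 in the main fit, so this result depended on the clustering. Without mutant 2, Rps25 (-0.029), Rpl31 (-0.097) and Rps15 (-0.040) were reversed, and leaving out 1 library gave up to 0.202, 0.273 and 0.335 for them. Over all genes, 234 rose and 144 fell with the block, 37 and 27 with DESeq2, 240 and 171 with no filter on low counts, 57 and 37 with doublets kept, 13 and 15 with classes weighted alike, 0 and 0 over all barcodes, and 3 to 167 rose and 6 to 100 fell with 1 library left out. The weighting over 6 states and leaving out cluster 8 (-1.68 points) were chosen after seeing the data. The cause of each change was not tested.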

Other observations

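The barcodes left out for few genes or many mitochondrial UMIs had low ribosomal protein shares. They were 26.1% (WT 1), 39.2% (WT 2), 43.3% (mutant 1) and 31.2% (mutant 2) of barcodes. Ribosomal protein genes took 2.99%, 3.50%, 4.56% and 11.8% of their UMIs in that order, and mitochondrial genes took 67.4%, 58.5%, 58.0% and 20.6%. The cluster left out for its B-cell and epithelial markers had a ribosomal protein share of 33.5%, 28.0%, 26.8% and 21.3% in the same order, in 17, 38, 38 and 14 cells.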
